A study of Mus musculus with 6 samples.

Results

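The genes described are 40 genes of glycolysis and of the response to low oxygen, measured in the mouse breast carcinoma line 4T1.2, which spreads to bone. They were chosen by name: probes whose gene name equals a member's symbol or its other symbol were taken, with the brightest probe standing for each gene. Of the 40 members, 39 had a probe (70 probes in all) among the 27670 genes on the array. Of those 39, 37 were well above background on at least 3 of the 6 arrays and were tested among 15416 genes. Slc2a3, a glucose transporter, and Epas1, the HIF-2 alpha subunit, were too dim to test, and no probe carried the symbol Gapdh.

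The study compared basal expression in cells with the retroviral vector pMSCV carrying Irf7 (the IRF7 cells) against cells with the empty base vector. Irf7 is a transcription factor that induces type I interferon genes. Both populations came from 4T1.2 cells of BALB/c background, were selected with puromycin, and were each made by pooling several single-cell clones. They were cultured under the same stated conditions, and the labels name no treatment with low oxygen. Each group had 3 arrays, and the series' design text speaks of 3 independent experiments. Because each group is 1 pooled population, the p-values measure the spread between cultures of these populations.

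Glycolysis splits glucose into pyruvate through a chain of cytosolic enzymes, and lactate dehydrogenase turns pyruvate into lactate. Under low oxygen, the transcription factor HIF, a dimer of an oxygen-sensitive alpha subunit (Hif1a or Epas1) and Arnt, induces most enzymes of this chain along with genes of vessel growth, pH control and mitophagy. When oxygen is present, Egln prolyl hydroxylases mark the alpha subunit and the Vhl ubiquitin ligase removes it, so its protein is set largely after transcription. Tumour cells often run glycolysis at high flux even with oxygen. The arrays measure RNA, so protein and flux were not measured.

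All values below are levels or differences on a log2 scale: a level is log2 of the processed signal minus the array's 75th percentile. Irf7 stood at -2.40, -2.56 and -2.48 on the base-vector arrays and at 1.79, 1.83 and 1.77 on the IRF7 arrays. Its difference was 4.28, or 19.4-fold (SE 0.0485, limma adjusted p = 3.18e-07). Between 54.3 and 59.7% of the 43379 mouse spots of an array were well above background, and the number of arrays limits the precision. Krt8, Krt18, Epcam, Cdh1 and Krt14, markers of mammary carcinoma and epithelium, were well above background on all 6 arrays, Krt5 on 5 and Krt19 on none. Epcam (signal 62.2 to 206), Krt14 (96.1 to 108) and Cdh1 (190 to 267) were far dimmer than Krt8 (141895 to 202024). Of the 6 tested, Epcam was higher by 1.19 and Krt8 by 0.15, and 4 did not pass (median change 0.09). The share that passed was 33.3%, against 61.0% of all genes. The summed signal of 10 fibroblast, endothelial and fat markers was 6614 to 7479 on the base-vector arrays and 3580 to 4056 on the IRF7 arrays, with 4 of the 10 above background on no array. Most of that sum was Pdgfra (6267 to 7124, then 3105 to 3553); of the 5 tested markers of that list 2 were lower (Pdgfra, Dcn) and 2 higher (Cdh5, Fabp4), with a median change of 0.30. Myeloid markers summed to 608 to 693 and 698 to 924, and lymphocyte markers to 233 to 341 and 307 to 355. The part of these markers in the results was not tested. Slide 1 held the IRF7 arrays with base-vector replicate 1, and slide 2 held the remaining base-vector arrays. A fit with slide as a block and a fit within slide 1 therefore both rest on base-vector replicate 1 and are 1 check.

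The module did not move as a block. Of the 37 tested members, 19 rose, 10 fell and 8 did not pass the test (limma, Benjamini-Hochberg adjusted p under 0.05 over all genes). In RNA from whole cultures, fewer cells of a kind and less RNA per cell cannot be told apart. The share that passed was 78.4%, against a background of 61.0% of all 15416 genes, and against 64.9% of the 14160 genes that, like all 37 members, were well above background on all 6 arrays. Members that rose made up 51.4%, against 31.8% of all genes, and members that fell 27.0%, against 29.2%. The median member changed by 0.11, and the median gene by 0.03. Only 4 members passed the test with at least a 2-fold change (10.8%, against 5.87% of all genes), and 26 changed by under 0.5 in size. Without scaling between arrays the median of all genes was 0.23, and small rises read larger and small falls smaller. The 3 arrays of a group lay wholly on 1 side of the other 3 for 30 members (81.1%, against 67.8% of all genes). The spread within a group was small, with a median SD of 0.05 and a highest SD of 0.65, that of Ddit4.

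**Figure D1:**
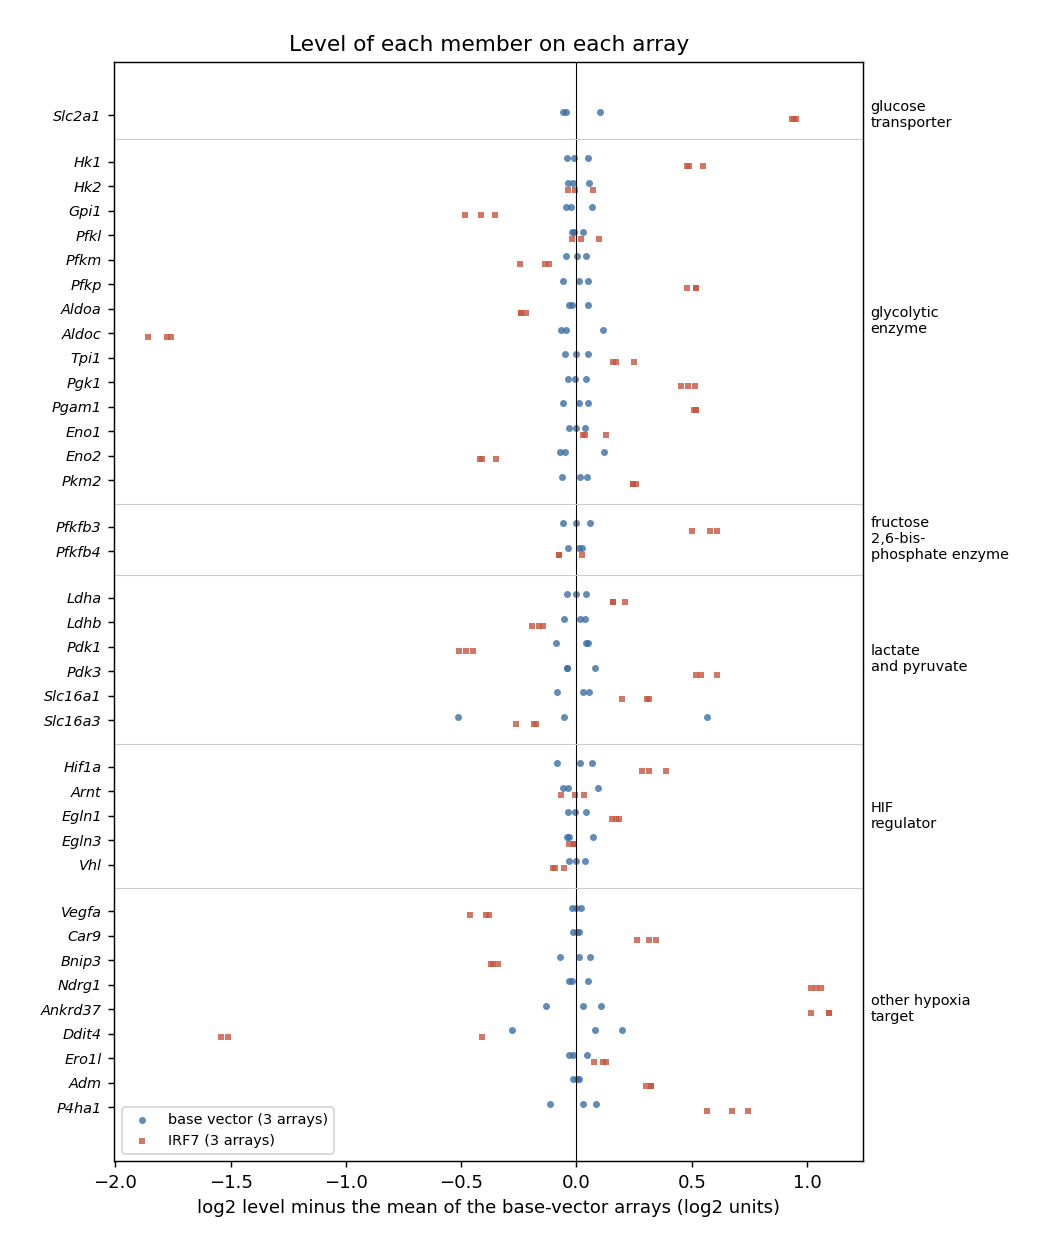
Level of each of the 37 tested members on each of the 6 arrays, as the log2 level minus the mean of the 3 base-vector arrays (circles, base vector; squares, IRF7), grouped by role. Aldoc lies farthest to the left (log2 change -1.80) and Slc2a1, Ndrg1 and Ankrd37 farthest to the right, while the base-vector arrays of Slc16a3 and the IRF7 arrays of Ddit4 scatter widely.

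Of the glucose transporter members, Slc2a1 rose. Slc2a1, which encodes the main glucose transporter of proliferating cells (GLUT1), lies under its probe on chromosome 4, positions 118513698 to 118513757 (build mm7, plus strand). Slc2a1 levels were 3.46, 3.47 and 3.62 on the base-vector arrays and 4.47, 4.45 and 4.46 on the IRF7 arrays. The groups were far apart, with the IRF7 arrays nearly equal. The level was 1.92-fold higher (log2 change 0.94, SE 0.0493, limma adjusted p = 3.44e-05). Among other tested transporters, outside the members, Slc2a4 fell by 1.63, Slc2a8 by 1.18 and Slc2a6 by 0.80, and Slc2a2 changed by 0.07 and did not pass. The brightest of the 3 Slc2a3 probes was well above background on 1 IRF7 array and on no other.

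The glycolytic enzymes, 14 tested of 15, split into 6 that rose (42.9%, against 31.8% of all genes), 5 that fell (35.7%, against 29.2%) and 3 that did not pass (median change 0.05, against 0.03). Movement in both directions is thus also what all genes showed. For the first step, phosphorylation of glucose by hexokinase, the change in RNA differed between isozymes. Hk1, the widely expressed hexokinase, read 4.71, 4.68 and 4.77 on the base-vector arrays and 5.20, 5.27 and 5.21 on the IRF7 arrays (chromosome 10, positions 61787906 to 61787965). All IRF7 arrays lay above all base-vector arrays, and Hk1 rose by 0.51 (SE 0.0384, limma adjusted p = 0.000133). Hk2, the hexokinase best known as a HIF target in tumours, read 1.59, 1.50 and 1.52 against 1.61, 1.50 and 1.53. Those groups overlapped fully, and the Hk2 difference was 0.00 (SE 0.0429, limma adjusted p = 0.948).

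The middle of the pathway was mixed. Gpi1, which converts glucose 6-phosphate to fructose 6-phosphate, fell by 0.42 (SE 0.0475, limma adjusted p = 0.000675), though unscaled values gave -0.22 and no call (adjusted p = 0.0754). The phosphofructokinase subunits, which form the committed step, went separate ways. Pfkp, the platelet form, read 1.41, 1.52 and 1.48 on the base-vector arrays and 1.95, 1.99 and 1.99 on the IRF7 arrays (chromosome 13, positions 6475782 to 6477936, a stretch longer than the probe of 60 bases, which is therefore split). It rose by 0.51 (SE 0.038, limma adjusted p = 0.000127), with no overlap. Pfkl, the liver form, changed by 0.03 (limma adjusted p = 0.514). Pfkm, the muscle form, fell by 0.17 (limma adjusted p = 0.0258), but its sign turned to 0.03 without scaling between arrays, and with each chromosome centred it was -0.33. The Pfkm call was also lost under median centring, with slide as a block (adjusted p = 0.127), and without base-vector replicate 1 or 3 (adjusted p = 0.0652 and 0.0716) or IRF7 replicate 2 (0.0569).

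The largest change of any member was in an aldolase. Aldoc, the isozyme known from brain, read -0.97, -0.95 and -0.79 on the base-vector arrays and -2.76, -2.68 and -2.66 on the IRF7 arrays (chromosome 11, positions 78408037 to 78408096, plus strand). The gap between the groups was far wider than the spread within either, and Aldoc was 3.48-fold lower (log2 change -1.80, SE 0.06, limma adjusted p = 7.84e-06). A second Aldoc probe, dim and well above background on 4 arrays, changed by -0.06, with overlapping groups. Aldoa, the main muscle and tumour isozyme, fell by 0.23 (SE 0.0331, limma adjusted p = 0.00161), with -0.13 under quantile scaling; its call was lost without scaling (change -0.03) and under median centring (-0.27, adjusted p = 0.0593).

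From triose phosphate to pyruvate, 4 of 6 tested enzymes rose, where 31.8% of all genes did. Pgam1, phosphoglycerate mutase, read 5.88, 5.81 and 5.92 on the base-vector arrays and 6.39, 6.38 and 6.39 on the IRF7 arrays (chromosome 19, positions 41812247 to 41812306). Its IRF7 arrays agreed to within 0.01, and it rose by 0.52 (SE 0.0367, limma adjusted p = 0.000105). Pgk1, phosphoglycerate kinase, which makes the first ATP of the pathway, rose by 0.49 (SE 0.0335, limma adjusted p = 9.34e-05). Its probe is printed 10 times on each array, and those spots varied by a CV of 2.96 to 5.27%. Tpi1, triosephosphate isomerase, rose by 0.19 (limma adjusted p = 0.00875), and Pkm2, pyruvate kinase, by 0.25 (limma adjusted p = 0.0016). The Tpi1 call was lost with slide as a block (adjusted p = 0.0677), and both calls were lost under median centring. Eno1, the ubiquitous enolase, changed by 0.06 (limma adjusted p = 0.226), while Eno2, the neuronal isozyme, fell by 0.39 (SE 0.0591, limma adjusted p = 0.00204). Without scaling Eno1 passed as higher (0.26, adjusted p = 0.045) and Eno2 did not pass (-0.19, adjusted p = 0.105).

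Gapdh, glyceraldehyde-3-phosphate dehydrogenase, could not be placed. A probe named LOC14433, by the gene number of Gapdh (chromosome 6, positions 125188005 to 125188064), changed by 0.88 (SE 0.0751, limma adjusted p = 0.000206). It was dim, with mean levels of -3.46 in the base-vector cells and -2.57 in the IRF7 cells. A probe named LOC380687 overlaps it (positions 125188003 to 125188172) and changed by 0.09 (SE 0.0363, limma adjusted p = 0.0784). This second probe was far brighter, with mean levels of 6.76 and 6.85. Gapdh has many processed pseudogenes, and which transcripts either probe reports was not tested. Neither was counted among the members. Counting the dim LOC14433 probe as Gapdh, an alternative chosen after seeing the data, would give 20 members that rose. The bright LOC380687 probe did not pass, so counting it instead would leave 19.

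The RNA of enzymes that regulate the committed step also changed unequally between isozymes. Pfkfb3, which makes fructose 2,6-bisphosphate, the activator of phosphofructokinase, read -0.63, -0.75 and -0.69 on the base-vector arrays and -0.11, -0.19 and -0.08 on the IRF7 arrays (chromosome 2, positions 11411110 to 11411169). All 3 IRF7 arrays were higher, and Pfkfb3 rose by 0.56 (SE 0.0483, limma adjusted p = 0.000216). Pfkfb4, its relative, changed by -0.04 (SE 0.041, limma adjusted p = 0.4).

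Of 6 genes for lactate and for pyruvate's entry into mitochondria, 3 rose, 2 fell and 1 did not pass. Of all genes, 31.8% rose and 29.2% fell. The counts of so small a group were not tested against that background and are a description. Ldha, the lactate dehydrogenase subunit that HIF induces, read 6.65, 6.57 and 6.61 on the base-vector arrays and 6.82, 6.77 and 6.77 on the IRF7 arrays (chromosome 7, positions 43031720 to 43031779). The groups did not overlap, but the rise was small: 1.13-fold (log2 change 0.18, SE 0.0347, limma adjusted p = 0.00595). With slide as a block the Ldha change was 0.13 and did not pass (adjusted p = 0.0806), nor did it under median centring (0.15, adjusted p = 0.264), while with each chromosome centred it was 0.66 (adjusted p = 5.1e-05). Ldhb, the subunit that favours lactate oxidation, fell by 0.17 (SE 0.0354, limma adjusted p = 0.00825), with a value of 0.03 without scaling and a lost call under median centring (-0.20, adjusted p = 0.147) and with slide as a block (-0.18, adjusted p = 0.0506).

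The pyruvate dehydrogenase kinases, which shut pyruvate out of the citric acid cycle, moved in opposite directions. Pdk3 read -0.86, -0.98 and -0.98 on the base-vector arrays and -0.42, -0.40 and -0.33 on the IRF7 arrays (chromosome X, positions 89151540 to 89151599). The groups were well apart, and Pdk3 rose by 0.56 (SE 0.0474, limma adjusted p = 0.000207). Pdk1, the kinase known as a HIF target, fell by 0.48 (SE 0.0469, limma adjusted p = 0.000348). Slc16a1, the lactate transporter MCT1, rose by 0.27 (SE 0.0523, limma adjusted p = 0.00572), a call lost under median centring (adjusted p = 0.112) and with slide as a block (adjusted p = 0.0596). Slc16a3, the HIF-induced exporter MCT4, was dim and scattered in the base-vector cells, at -3.88, -4.34 and -3.26. Its IRF7 levels of -4.09, -4.01 and -4.00 lay within that range, and the difference was -0.20 (SE 0.266, limma adjusted p = 0.538). Without base-vector replicate 3 it was 0.08.

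The isozyme contrasts were set against each other within arrays. For 11 pairs of related members the log2 ratio of the pair was taken on each array, and its change between groups is given, since levels of different probes are not comparable. In 10 of the 11 pairs the groups did not overlap; the same held for 67.8% of all single genes, and no such share was computed for pairs, so the count is a description. The ratio rose by 1.56 for Aldoa over Aldoc, 0.67 for Pfkp over Pfkm, 0.60 for Pfkfb3 over Pfkfb4, 0.46 for Eno1 over Eno2 and 0.35 for Ldha over Ldhb. It fell by 1.04 for Pdk1 over Pdk3 and by 0.50 for Hk2 over Hk1. The other shifts were 0.47 for Pfkp over Pfkl, 0.20 for Pfkl over Pfkm and -0.19 for Egln3 over Egln1. Slc16a3 over Slc16a1, at -0.47, was the pair whose groups overlapped. With 3 arrays a group, the exact two-sided permutation test cannot go below p = 0.1, the value of those 10 pairs, so none could pass 0.05.

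**Figure D2:**
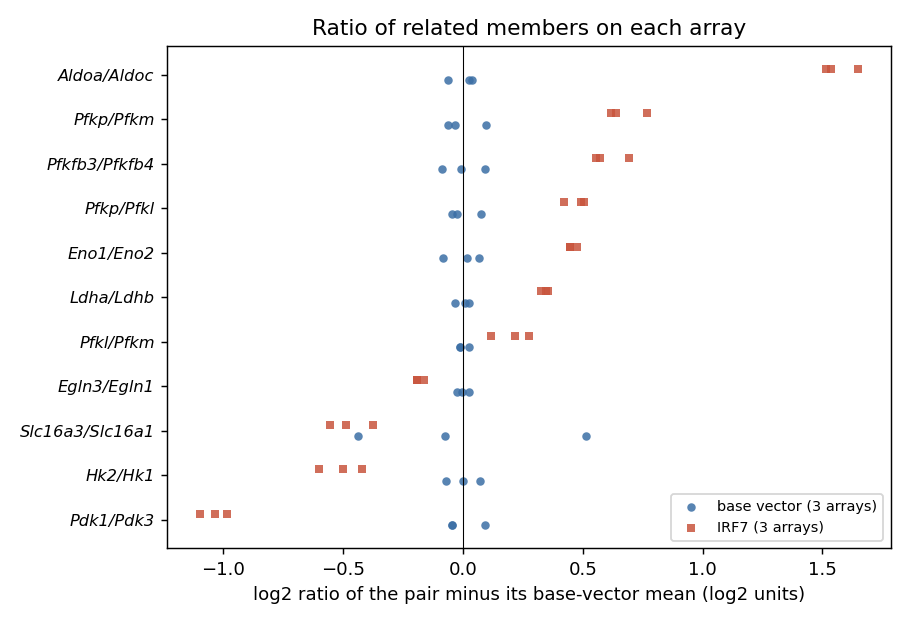
Log2 ratio of 11 pairs of related members on each array, minus the mean of the 3 base-vector arrays (circles, base vector; squares, IRF7). The pairs run from Aldoa over Aldoc (1.56 higher in IRF7) to Pdk1 over Pdk3 (1.04 lower), and only Slc16a3 over Slc16a1 overlaps.

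The HIF regulators, 5 tested of 6, had a median change of -0.01: 2 rose and 3 did not pass. The share that passed was below the 61.0% of all genes, of which 31.8% rose. The counts of so small a group were not tested against that background and are a description. Hif1a, the oxygen-sensitive subunit, read 2.27, 2.17 and 2.32 on the base-vector arrays and 2.54, 2.57 and 2.64 on the IRF7 arrays (chromosome 12, positions 71899015 to 71899075). The groups did not overlap, and Hif1a rose 1.26-fold (log2 change 0.33, SE 0.0501, limma adjusted p = 0.0021). With each chromosome's genes centred on their median level, the Hif1a change was 0.13 and did not pass (adjusted p = 0.0679). The tested genes of chromosome 12 had a median change of 0.13. Egln1, the main oxygen-sensing hydroxylase, rose by 0.17 (SE 0.0324, limma adjusted p = 0.00553), a call lost under median centring (adjusted p = 0.308) and a change of 0.08 with each chromosome centred. Arnt changed by -0.01 (adjusted p = 0.823), Egln3, a hydroxylase that HIF itself induces, by -0.02 (0.747), and Vhl by -0.08 (0.0843). With each chromosome centred, Egln3 (-0.22, adjusted p = 0.00364) and Vhl (-0.08, adjusted p = 0.0408) passed as lower. The 2 probes of Epas1 were well above background on no array.

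All 9 other hypoxia targets passed, against 61.0% of all genes. Of these, 6 were higher (66.7%, against 31.8%) and 3 lower (33.3%, against 29.2%), with a median change of 0.31. For so small a group, these counts were not tested against that background and are a description. The calls of Ero1l and Ddit4 depended on the fit, as given below. Both largest rises of the module were in this group. Ankrd37, an ankyrin-repeat gene that HIF induces, read -2.92, -3.16 and -3.00 on the base-vector arrays and -1.93, -2.01 and -1.93 on the IRF7 arrays (chromosome 8, positions 44774913 to 44774972). All IRF7 arrays were higher, and Ankrd37 was 2.10-fold higher (log2 change 1.07, SE 0.0686, limma adjusted p = 7.12e-05). Ndrg1, a stress-induced gene linked to growth arrest and metastasis, read 3.49, 3.48 and 3.56 against 4.57, 4.53 and 4.55 (chromosome 15, positions 67013174 to 67013233). With that wide gap it was 2.05-fold higher (log2 change 1.04, SE 0.0341, limma adjusted p = 7.57e-06). The 22 genes tested within 5 Mb of Ndrg1 had a median change of 0.42.

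P4ha1, a prolyl hydroxylase subunit of collagen folding, read -0.56, -0.70 and -0.50 on the base-vector arrays and -0.02, 0.09 and 0.16 on the IRF7 arrays (chromosome 10, positions 58889719 to 58889778). It rose by 0.66 (SE 0.0686, limma adjusted p = 0.000451), with no overlap. Car9, the carbonic anhydrase used as a marker of tumour hypoxia, read -1.85, -1.82 and -1.83 against -1.57, -1.49 and -1.52 (chromosome 4, positions 43526965 to 43527024). The groups were apart, but the rise was only 1.24-fold (log2 change 0.31, SE 0.032, limma adjusted p = 0.000474). Adm, the vasoactive peptide adrenomedullin, rose by 0.31 (SE 0.0263, limma adjusted p = 0.000194). Ero1l, an oxidase of protein folding, rose by 0.11 (limma adjusted p = 0.035). That Ero1l call was lost under median centring (adjusted p = 0.585), with slide as a block (0.131), with each chromosome centred (change 0.04), and without base-vector replicate 1 or 2 or any IRF7 replicate (0.052 to 0.112).

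Vegfa, the main angiogenic factor, was among the 3 that fell. It read 1.16, 1.14 and 1.18 on the base-vector arrays and 0.70, 0.77 and 0.78 on the IRF7 arrays (chromosome 17, positions 44146842 to 44146901). The groups were clearly separate, and Vegfa was 1.33-fold lower (log2 change -0.41, SE 0.0341, limma adjusted p = 0.000185), though unscaled values gave -0.21 and no call (adjusted p = 0.106). Its other probes changed by -0.51 and -0.41. Bnip3, a receptor for mitophagy, fell by 0.36 (SE 0.0409, limma adjusted p = 0.000683), with -0.16 and no call in unscaled values (adjusted p = 0.214).

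Ddit4, an inhibitor of mTORC1 signalling, gave a call that rests on scattered arrays. It read 4.68, 5.04 and 5.16 on the base-vector arrays and 3.42, 4.55 and 3.45 on the IRF7 arrays (chromosome 10, positions 59467933 to 59467992). IRF7 replicate 2 lay far above the other IRF7 arrays and close to the lowest base-vector array. The fall was 2.23-fold (log2 change -1.15, SE 0.338, limma adjusted p = 0.0279). It did not pass with slide as a block (-0.88, adjusted p = 0.201), nor without base-vector replicate 2 or 3 (-1.12 and -1.06, adjusted p = 0.0764 and 0.0831), nor without IRF7 replicate 1 or 3 (-0.96 and -0.98, adjusted p = 0.0855 and 0.0843).

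Several falls lay on 1 chromosome. The 1136 tested genes of chromosome 7 had a median change of -0.38, and 66.8% of them passed as lower; the medians of the other chromosomes were -0.15 to 0.15. Of the 5 members there, Gpi1, Aldoa and Bnip3 fell, and Ldha and Adm rose. With each chromosome's genes centred on their median level on each array, Gpi1 changed by 0.06 (adjusted p = 0.219), Aldoa by 0.24 (adjusted p = 0.000515) and Bnip3 by 0.12 (adjusted p = 0.0289), so the sign of all 3 turned. The same centring raised the change of Ldha from 0.18 to 0.66 (adjusted p = 5.1e-05) and that of Adm from 0.31 to 0.79 (adjusted p = 7.54e-06). Because it subtracts the median level and not the median change, it moved these members by more than the median change of -0.38. Set against that median change, Gpi1 (-0.42) lay slightly below it, Bnip3 (-0.36) slightly above it and Aldoa (-0.23) above it. Off chromosome 7, 17 of 32 members rose (53.1%), 7 fell (21.9%) and 8 did not pass, with a median of 0.14. Of all genes, chromosome 7 included, 31.8% rose and 29.2% fell. The shares among all genes off chromosome 7 were not computed, so the member counts are a description. Chromosomes 11 (median -0.15, 46.1% passed as lower) and 2 (median -0.12, 44.0%) came next after chromosome 7. With each chromosome centred, Aldoc on chromosome 11 changed by -1.54. On chromosome 2, Pdk1 then changed by -0.34 and Pfkfb3 by 0.70. Why these chromosomes read lower was not tested.

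**Figure D3:**
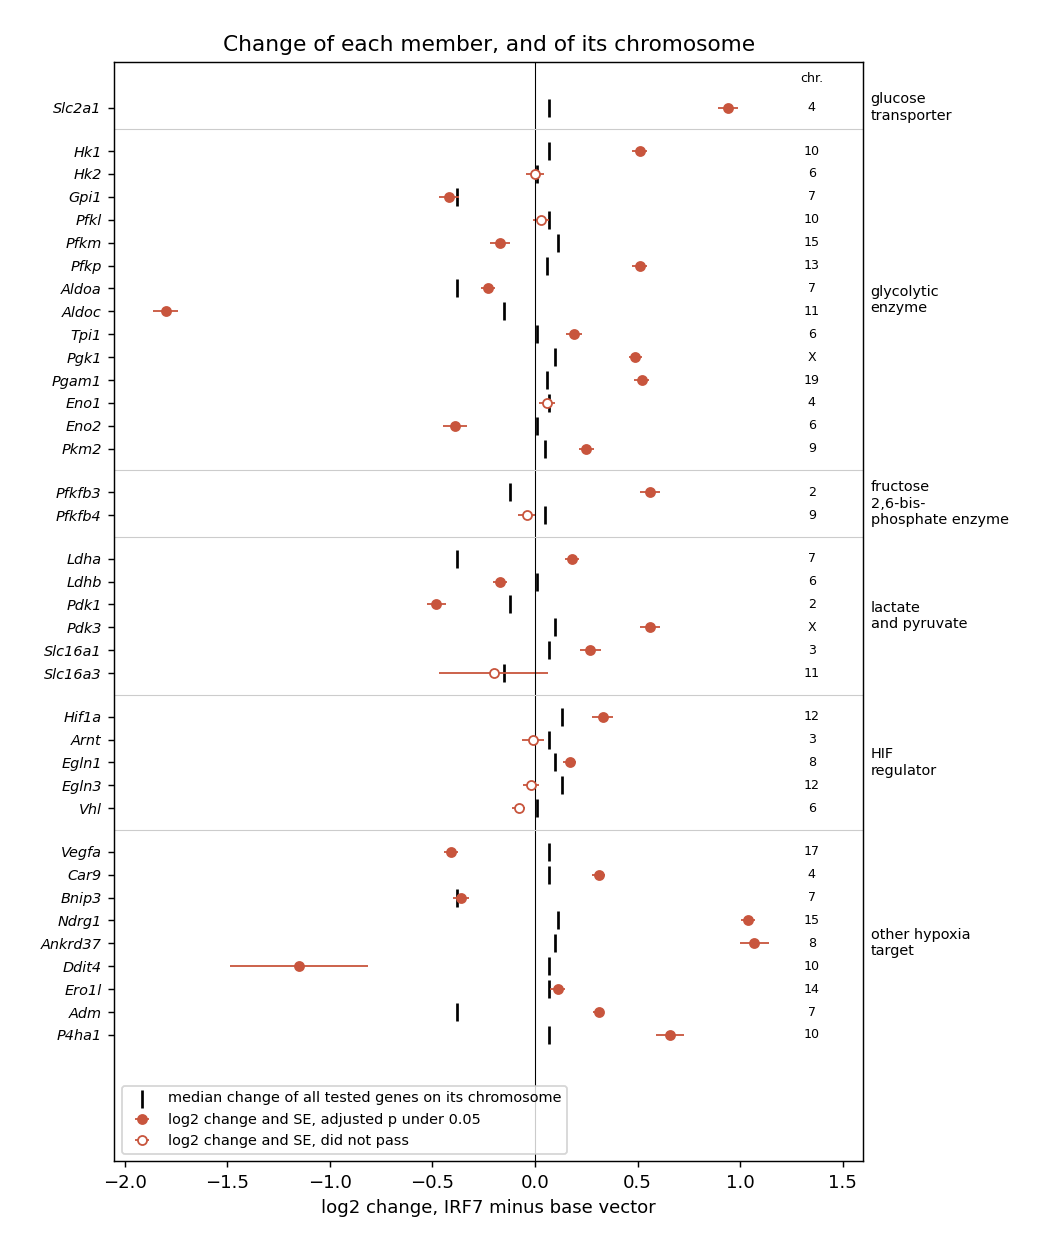
Log2 change (IRF7 minus base vector) of the 37 tested members with its SE (filled, passed the test; open, did not), beside the median change of all tested genes on the same chromosome (vertical ticks). Gpi1 and Bnip3 sit near the chromosome 7 median of -0.38, while Ldha and Adm lie well above it.

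Further probes of the same genes gave a check within the arrays. For members that passed the test, 22 of 25 further probes were well above background on at least 3 arrays. Of these 22, 21 had the sign of the probe that stood for the gene, and 18 had in addition groups that did not overlap. Groups did not overlap for 67.8% of all genes. No such share was computed for further probes, so the count is a description. The sign count includes small changes, in probes of Pfkp (0.02), Hk1 (0.03) and Aldoc (-0.06). The further Hk1 probes changed by 0.46, 0.18, 0.13 and 0.03, and those of Pfkp by 0.50 and 0.02, so the size of both rises depends on the probe. With the mean of a gene's probes, Hk1 changed by 0.26 and Aldoc by -0.93, and both still passed. Probes of P4ha1 (0.60) and Pdk3 (0.53) changed much as the first did. A Slc16a1 probe changed by -0.03, the exception in sign. For Arnt, which did not pass, the other probes changed by 0.18, -0.28 and -0.41.

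**Figure D4:**
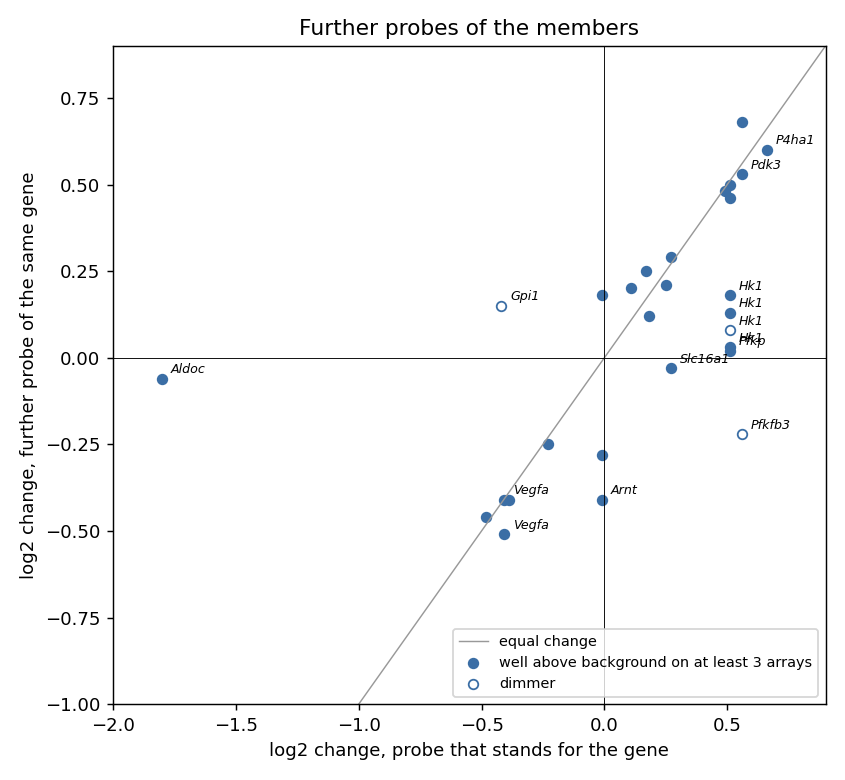
Log2 change of each further probe of a tested member against that of the probe that stood for the gene (filled, well above background on at least 3 arrays; open, dimmer; line, equal change). Most filled points lie near the line, and probes of Aldoc, Hk1, Pfkp, Arnt and Slc16a1 are among those that depart from it.

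Promoter sequence was read for the members because HIF binds a short core, ACGTG or GCGTG. RefSeq windows of 300 bases (250 before to 50 after the start site, GRCm38.p6) matched 37 members; Slc2a3, Epas1 and Ndrg1 had no entry. On either strand, 33 of those 37 (89.2%) held the core, against 46.7% of all 27025 genes and 66.2% of the 9972 tested genes that matched by symbol. The 33 include Gapdh, which was not tested. Some genes have several windows. By window, the core stood in 80.4% of 51 member windows, against 43.8% of all 32851. Among tested members it stood in 17 of 18 that rose, 8 of 10 that fell and 7 of 8 that did not pass. Tpi1, Gpi1, Eno2 and Vhl were the members without it. A search for the interferon element (GAAA, any 2 bases, GAAA, either strand), chosen after the values were seen, found it in Vhl and Vegfa, 2 of 37 members (5.41%), against 3.99% of all genes. A match is a description of letters and not a site. Stretches upstream of 6 start sites, also chosen after the values were seen, are shown. Of these members, Slc2a1, Ldha, P4ha1 and Ankrd37 rose, and Aldoc and Ddit4 fell. For Ldha, P4ha1, Ankrd37 and Aldoc, the window of 300 bases holds further cores outside the stretch. The stretches therefore cannot be compared by their number of cores. Capitals mark the core or its complement, and CACGTG reads as the core on both strands.
Slc2a1 (chr4:119108659-119108738, plus strand): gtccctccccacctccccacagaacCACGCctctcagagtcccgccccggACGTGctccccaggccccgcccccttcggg
Ldha (chr7:46845731-46845799, plus strand): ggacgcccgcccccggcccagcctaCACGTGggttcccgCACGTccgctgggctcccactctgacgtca
P4ha1 (chr10:59323255-59323295, plus strand): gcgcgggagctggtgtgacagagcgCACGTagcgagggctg
Ankrd37 (chr8:45999851-45999881, minus strand): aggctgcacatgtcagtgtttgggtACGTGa
Aldoc (chr11:78322998-78323052, plus strand): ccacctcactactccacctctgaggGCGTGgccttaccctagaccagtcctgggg
Ddit4 (chr10:59951856-59951982, minus strand): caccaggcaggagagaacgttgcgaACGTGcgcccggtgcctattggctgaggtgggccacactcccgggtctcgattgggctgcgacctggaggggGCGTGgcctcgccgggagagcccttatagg

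Other genes of the same pathways came from lists chosen with earlier results known. Their counts are read against all genes, of which 61.0% passed, 31.8% higher and 29.2% lower, with a median of 0.03. Of 16 further glycolysis genes tested, 5 rose, 4 fell and 7 did not pass (median 0.06; 56.2% passed), close to the background. Slc2a4, the insulin-responsive transporter, read -4.63, -4.39 and -4.56 against -6.15, -6.39 and -5.92 (log2 change -1.63, limma adjusted p = 0.000165) and was above background on 2 of 3 IRF7 arrays. Slc2a8, an intracellular transporter, fell by 1.18 (limma adjusted p = 2.05e-05), and Eno3, the muscle enolase, by 0.84 (limma adjusted p = 1.37e-05). Among 13 genes of pyruvate dehydrogenase and pyruvate entry, 7 rose, 2 fell and 4 did not pass (median 0.14). Pdp1, the phosphatase that activates pyruvate dehydrogenase, rose by 0.93 (limma adjusted p = 2.28e-05), and Me1, malic enzyme, by 0.70 (0.000164). Pdk2, a further kinase of the complex, fell by 0.88 (limma adjusted p = 1.5e-05).

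Side branches gave small counts. In the pentose phosphate pathway, which makes NADPH and ribose, 1 of 6 genes rose, 3 fell and 2 did not pass (median -0.11). Pgd rose by 0.30, while Taldo1, on chromosome 7, fell by 0.31 and Tkt by 0.25. Of 9 glycogen genes, 3 rose, 3 fell and 3 did not pass (median 0.09). Pygl, the liver phosphorylase, rose by 1.43 (limma adjusted p = 8.43e-05) from levels above background on 2 of 3 base-vector arrays. Gys1, muscle glycogen synthase on chromosome 7, fell by 0.58 and Pygb, the brain phosphorylase, by 0.39.

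Of 16 genes of HIF turnover and partners, 6 rose, 3 fell and 7 did not pass (median 0.04). Egln2, the third hydroxylase, fell by 0.72 (limma adjusted p = 5.37e-05) and lies on chromosome 7. Eloc, a subunit of the Vhl ligase, rose by 0.61, and Hsp90aa1, a chaperone that binds the alpha subunit, by 0.35. Among 29 further hypoxia targets, 16 rose (55.2%), 7 fell (24.1%) and 6 did not pass (median 0.16), against 31.8% and 29.2% of all genes. Pfkfb2 (higher), Gys1 (lower) and Gbe1 (did not pass) are also counted in the further glycolysis or glycogen list above. Stc1, the glycoprotein hormone stanniocalcin, rose by 1.08 (limma adjusted p = 2.59e-05), and Ccng2, an atypical cyclin, fell by 1.06 (1.03e-05).

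Genes of glucose sensing included a large fall. Arrdc4, which ChREBP and MondoA induce when glucose metabolites build up, read -3.30, -3.24 and -3.33 on the base-vector arrays and -5.80, -5.53 and -5.47 on the IRF7 arrays. The groups were far apart (log2 change -2.31, limma adjusted p = 1.25e-05), with 2 of 3 IRF7 arrays above background, and the gene lies on chromosome 7. Mlx, the partner of both factors, rose by 0.76 (limma adjusted p = 2.18e-05), and Max, the partner of Myc, by 0.51 (0.00133). In all, 3 of 6 genes of this list rose, 2 fell and 1 did not pass (median 0.06).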

How the data were processed

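Total RNA was labelled with Cy3 and hybridised to single-colour Agilent arrays, per the labels' protocols, and the submitters' processing notes name Agilent Feature Extraction 9.5.3.1 for reading the scans. Per the file headers, the deposited processed signal is an intensity on a linear scale, background-subtracted but left unscaled between arrays. The deposited value table is identical to it (largest difference 0) and gave the unscaled alternative. Of 45018 spots, 1639 controls and 111 to 121 flagged spots per array were left out, and 1 spot on 1 array was saturated.

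Spots of a probe were averaged (41174 probes), and log2 of the signal minus the array's 75th percentile (1153 to 1467 before log2) was tested with limma 3.58.1 in R 4.3.3 (lmFit and eBayes, no block; 4 residual and 1.65 prior degrees of freedom). Genes were kept where at least 3 of 6 arrays read a probe well above background. The fit was also run on simulated levels with known changes, independent noise and no slide effect. That run cannot speak for the part of slide or scaling in these data. Other steps used Python 3.11.15, pandas 2.3.3 and matplotlib 3.10.9. Array coordinates are those of mm7; exon annotation of that build was not used here. The GRCm38.p6 gene table gave names only.

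The members and lists were chosen with earlier results of these data known. All members are accounted for; array values are given for called members changed by at least 0.5 and for Hif1a, Slc2a1, Ldha, Hk2, Car9 and Vegfa, and up to 3 genes per further list are named by the size of their change (1 gene this rule chose is not reported here, though it counts in its list); values for Slc16a3, the Gapdh-like probes, Slc2a2, Slc2a4, Slc2a6, Arrdc4 and single cell-type markers were added after they were seen. Alternatives were normexp background (offset 50), quantile, median or no scaling, other filters and probe rules, eBayes with trend, slide and replicate blocks, slide 1 alone, each array left out, chromosome centring and, chosen after seeing the data, the percentile over probes and Gapdh through its gene number.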

Additional observations from a re-analysis of the deposited data

How the results depend on the processing

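Of 740 values of single members under the alternatives, 667 kept their direction and side of the threshold, 41 lost the call, 3 gained one and 29 changed sign. Among members that passed, the sign turned without scaling for Pfkm (0.03) and Ldhb (0.03), and with each chromosome centred for Gpi1 (0.06), Aldoa (0.24) and Bnip3 (0.12). The other turns were of members that did not pass. Hk2 read -0.04 under quantile scaling, -0.03 under median centring, -0.05 with slide as a block or slide 1 alone, and -0.03 to 0.03 with an array left out. Quantile scaling gave Pfkl -0.01, Eno1 -0.01 and Arnt 0.00. Unscaled values gave Pfkfb4 0.16, Arnt 0.19, Egln3 0.18 and Vhl 0.12, and slide fits gave Arnt 0.04 and Egln3 0.02. With each chromosome centred Eno1 was at -0.03 and Slc16a3 at 0.05. Without 1 array, Slc16a3 ran from -0.46 to 0.08, Arnt 0.01 to 0.03 and Egln3 0.02. Over all genes 9397 passed, but 6198 under median centring and 14475 of 27670 with no filter on dim probes. No scaling moved the median of all genes to 0.23, made 79.1% of calls higher (52.1% with scaling; 32.6% with no filter), and left 3 members lower and 20 higher. Slide as a block gave 15 members higher and 7 lower, and slide 1 alone 16 and 8. With an array left out, 8248 to 9076 genes, 18 to 19 members higher and 8 to 9 lower passed, and 10 to 11 pairs did not overlap. Same-numbered arrays deviated from their group means with correlations of 0.045, 0.175 and 0.229, above those of differently numbered arrays (-0.179 to 0.003). Whether the numbers pair the arrays was not tested. The design text names no paired analysis, so the main fit had no block and the replicate block was an alternative. The replicate block gave 9691 genes and kept the counts of 19 members higher and 10 lower. The percentile over probes, chosen after seeing the data, gave 9428 genes. Dim probes (Slc16a3, Epas1, Slc2a3) limit what can be said of those genes.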
